A study of Mus musculus with 23 samples.

Results

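Clock output genes are transcribed under the control of the circadian oscillator and carry its rhythm to the metabolism of the cell. The 8 described here were *Dbp*, *Tef*, *Hlf*, *Nfil3*, *Usp2*, *Ciart*, *Bhlhe41* and *Wee1*, chosen by gene symbol, of 27179 genes counted in mouse liver. Each symbol matched 1 gene. RNA came from livers of 15 female mice, taken outside any tumor that could be seen. All mice carried *Alb-Cre*, which drives recombination in liver cells that express albumin, and both copies of *Trp53* floxed. The 6 Ctrl mice had wild-type *Braf* and 1 floxed *Icmt* allele. The 6 ABpIF/+ mice carried in addition the BrafCA/+ allele, which expresses the activated kinase after recombination, and 1 floxed *Icmt* allele. The 3 ABpIF/F mice carried BrafCA/+ and 2 floxed *Icmt* alleles. *Icmt* encodes the enzyme that methylates the carboxyl end of prenylated proteins. The sample labels of both BrafCA groups write *Braf* as +/+, whereas the description of the series gives BrafCA/+. Of the 6 Ctrl mice, 5 share a strain label that no other mouse carries, so that for these 5 the label and the group cannot be told apart, and BG3 is the Ctrl mouse with the label of the other groups. The mice lived under a light/dark cycle, and the study followed its animals until they died or had to be euthanized. Neither the age, the feeding state nor the time of day at which each mouse was sampled is given in the labels. The text of the study states ages for the ABpIF/F mice where it describes their tumors, without the mouse names used here. The depth was 24742910 to 32262649 gene counts per mouse.

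In the liver clock, BMAL1 with CLOCK or NPAS2 binds E-boxes and activates the *Per*, *Cry* and *Nr1d* genes, whose products feed back on it. DBP, TEF and HLF are related activators of the PAR bZIP family that bind D-boxes, and NFIL3 is a repressor that binds the same boxes. Their mRNAs cycle over the day in the liver of an undisturbed mouse, *Nfil3* out of phase with *Dbp*, so that the level in a single sample depends on the hour at which it was taken. PAR bZIP factors are known for driving enzymes of drug and lipid metabolism.

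Several motifs were looked for in the RefSeq promoters of the members (GRCm38.p6, 250 bases before to 50 after the start), on both strands. The table held 8 promoters for 7 of the members, 2 of them for *Tef*, and *Wee1* was not matched. The E-box CACGTG was found in 4 of these promoters, both of *Tef* and those of *Ciart* and *Bhlhe41*, and in 7.15% of the 32851 promoters in the table. *Ciart* held 3 of them, starting 116, 58 and 44 bases before the start. The E'-box CACGTT (4.68% of all promoters) and the D-boxes TTATGTAA, TTACGTAA, TTACATAA and TTATATAA (1.59%) had no match in any member. The ROR element, ANTAGGTCA or ANTGGGTCA, occurred in 1.45% of all promoters and once in *Nfil3*, 12 bases before the start. The windows of *Dbp*, *Hlf* and *Usp2* matched none of these letters. A match is a description of the sequence and not a bound site. The stretches around the E-boxes of *Ciart*, *Tef* and *Bhlhe41* are shown because the first pair were called and the third was not. They are written 5′ to 3′ on the strand of the gene with each E-box in capitals, and bases annotated as exon were left off. The *Ciart* stretches lie upstream of the gene at chr3:95882299-95882384 and chr3:95882252-95882326 (minus strand). The *Tef* stretch lies in an intron of the gene, before its second RefSeq start, at chr15:81811236-81811321 (plus strand), and that of *Bhlhe41* lies upstream at chr6:145865559-145865613 (minus strand).
Ciart, distal E-box: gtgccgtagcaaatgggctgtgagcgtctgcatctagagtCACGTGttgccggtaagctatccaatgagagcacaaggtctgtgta
Ciart, proximal pair of E-boxes: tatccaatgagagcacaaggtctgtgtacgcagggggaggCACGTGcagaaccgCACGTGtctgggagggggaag
Tef: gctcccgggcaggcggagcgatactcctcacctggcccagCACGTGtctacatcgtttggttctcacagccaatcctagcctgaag
Bhlhe41: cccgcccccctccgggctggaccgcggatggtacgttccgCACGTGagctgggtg

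Levels are given as CPM, the counts relative to a common library size after TMM scaling. The 3 groups were fitted together in edgeR and compared by its quasi-likelihood test. A gene was called where the Benjamini-Hochberg adjusted p over all genes was under 0.01 and the change was 2-fold or more. The targeted gene was examined first. *Icmt* was at 15.7, 15.2 and 16.6 CPM in the ABpIF/F mice BG183, BG38 and BG90, and between 27.8 and 34.7 CPM in Ctrl and between 27.8 and 37.4 CPM in ABpIF/+ mice. The ABpIF/F mice lay below all others. The labelled tissue was checked on hepatocyte markers, of which *Alb* was the most abundant, with 89159 CPM on average in Ctrl, 153783 in ABpIF/+ and 144110 in ABpIF/F mice.

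One mouse has to be named before the results. The Ctrl mouse malpa387 stood apart from the other 5 Ctrl mice in the clock output genes. Its *Dbp* was 3.69 CPM, where the other 5 were at 108.9 ± 18.7 (SD). For *Usp2* it had 3.69 CPM against 78.3 ± 15.2, and for *Ciart* 0.335 against 18.6 ± 3.20. In each case it was far below the others and near the ABpIF/F mice. Its *Icmt*, at 28.1 CPM, was that of a Ctrl mouse. Across the 12316 genes that averaged 1 CPM or more its log2 CPM correlated at 0.977 with the mean of the other Ctrl mice, at 0.886 with ABpIF/+ and at 0.906 with ABpIF/F. All 15 mice, malpa387 included, were nearest to their own group by this measure. Counts of called genes are therefore given from all mice and, where they differed, also without malpa387.

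No clock output gene was called between ABpIF/+ and Ctrl livers, whereas 4 of 8, *Tef*, *Hlf*, *Usp2* and *Ciart*, were lower in ABpIF/F than in Ctrl. The same 4 genes were higher in ABpIF/+ than in ABpIF/F, and none of the 8 was called in the other direction. Of all 27179 genes, 4.69% were called higher and 5.35% lower in ABpIF/+ vs Ctrl, 4.55% higher and 2.38% lower in ABpIF/F vs Ctrl, and 1.76% higher and 5.49% lower in ABpIF/+ vs ABpIF/F. The median log2 fold change of the 8 members was 0.18, -1.94 and 2.29 in these comparisons, and that of all genes was 0 in each. All 8 members averaged 1 CPM or more, and of the 12316 genes that did so 17.6%, 12.6% and 12.2% were called in either direction. The last pair of comparisons share the ABpIF/F mice, and the first pair share the Ctrl mice. Without malpa387, 5 members were lower in ABpIF/F than in Ctrl and 5 were higher in ABpIF/+ than in ABpIF/F, *Wee1* being added to the 4. In that fit 4.67% of all genes were called higher and 5.1% lower in ABpIF/+ vs Ctrl, 4.59% higher and 2.5% lower in ABpIF/F vs Ctrl, and 1.82% higher and 5.44% lower in ABpIF/+ vs ABpIF/F. Only *Usp2* was called in ABpIF/F vs Ctrl when either of the ABpIF/F mice BG38 and BG90 was left out, where 1.61% and 2.03% of all genes were called lower, or when the ABpIF/+ mice were left out of the fit, where 2.26% were. In ABpIF/+ vs ABpIF/F without the Ctrl mice in the fit, 5 members and 1.62% of all genes were called higher. DESeq2 called 6 members lower in ABpIF/F vs Ctrl and 5 higher in ABpIF/+ vs ABpIF/F, against 4.47% and 3.48% of the genes to which it gave an adjusted p. In whole tissue, fewer cells of a type cannot be told apart from less RNA per cell.

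**Figure D1:**
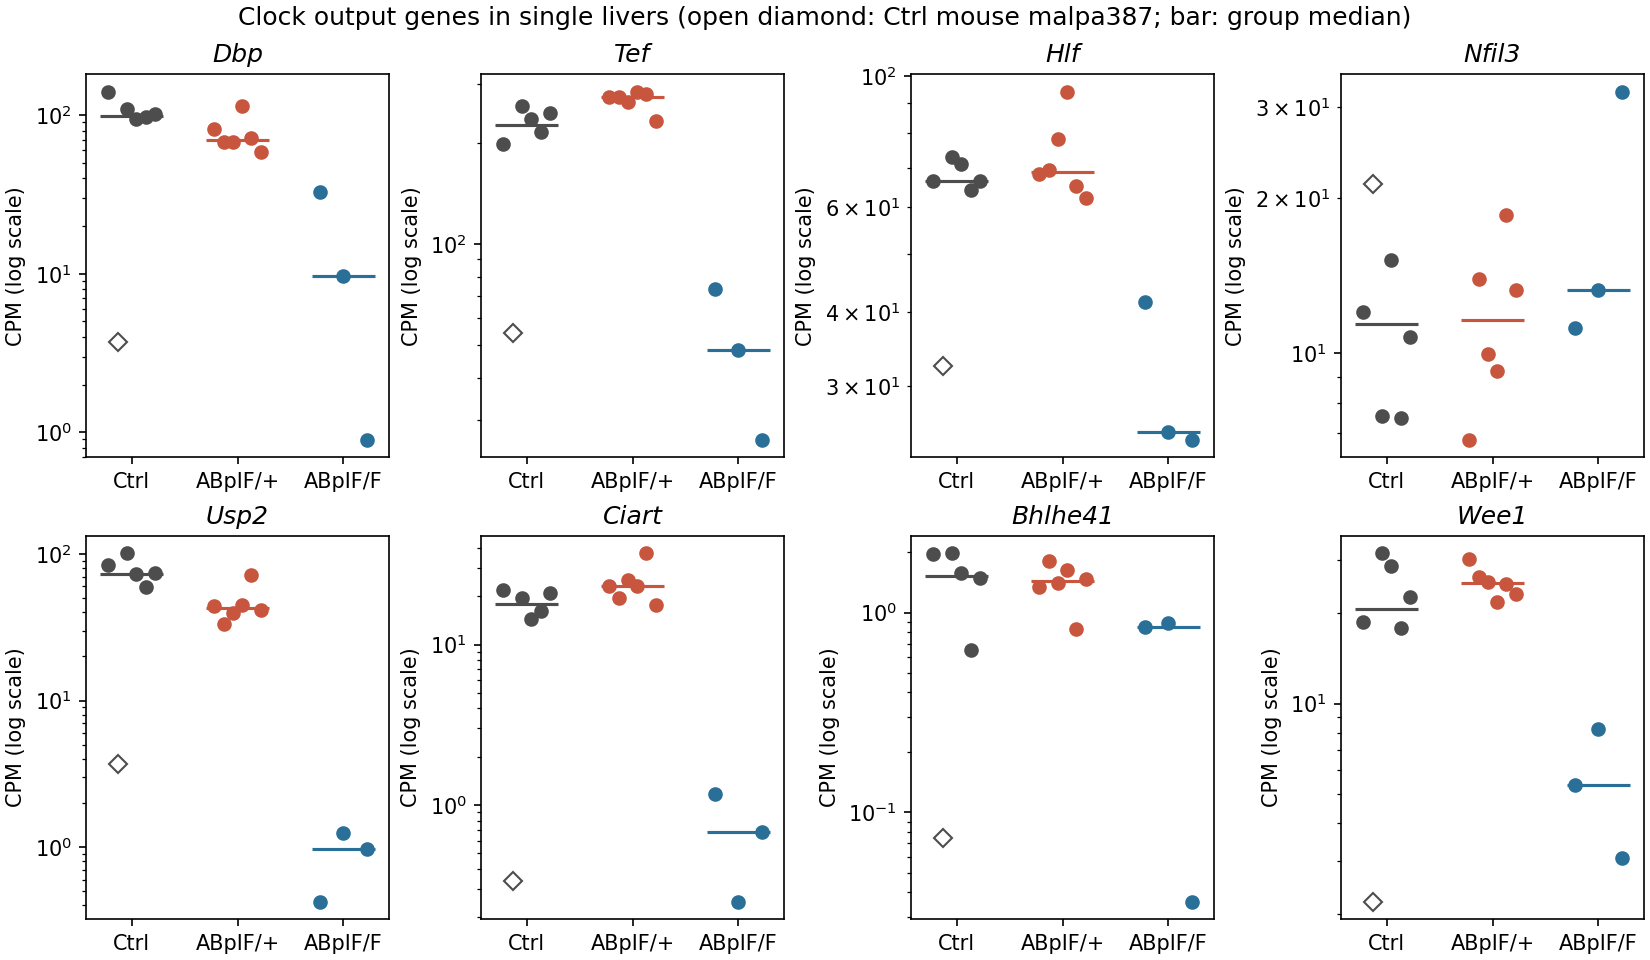
CPM of each clock output gene (log scale) in single livers of the 6 Ctrl, 6 ABpIF/+ and 3 ABpIF/F mice, with a bar at the group median and the Ctrl mouse malpa387 as an open diamond. *Dbp*, *Tef*, *Hlf*, *Usp2*, *Ciart* and *Wee1* of the ABpIF/F mice lie below every ABpIF/+ mouse, and malpa387 lies among or near them. The share of all genes with such a separation was not counted.

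Of the PAR bZIP activators, *Dbp* (chromosome 7, 45705088 to 45710203 in GENCODE M21 on GRCm38) had the widest spread among the ABpIF/F mice. It ranged from 3.69 to 140.9 CPM in Ctrl mice, with a median of 99.4, and from 58.2 to 113.7 CPM in ABpIF/+ mice, with a median of 69.9. The ABpIF/F mice BG183, BG38 and BG90 had 32.9, 9.67 and 0.893 CPM, the last from 25 counts. All 3 were below every ABpIF/+ mouse and below the 5 Ctrl mice other than malpa387, which lay between BG38 and BG90. The log2 fold change in ABpIF/F vs Ctrl was -2.66 (SE 1.01, edgeR adjusted p = 0.1), so that the difference was not called. Without malpa387 it was -2.91 with an edgeR adjusted p of 0.0192, which also missed the threshold. In ABpIF/+ vs ABpIF/F it was 2.41 (SE 0.99, edgeR adjusted p = 0.128).

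*Tef* (chromosome 15, 81802421 to 81826863) was the most even member in ABpIF/+ livers, from 232.5 to 284.2 CPM with a median of 274.1. In Ctrl it was between 54.2 and 257.0 CPM with a median of 225.8. The ABpIF/F mice BG183, BG38 and BG90 had 73.7, 48.4 and 26.1 CPM. They lay below all ABpIF/+ mice, and among the Ctrl mice only malpa387 was as low. *Tef* fell by 2.03 on the log2 scale in ABpIF/F vs Ctrl (SE 0.41, edgeR adjusted p = 0.00239). It was higher by 2.44 in ABpIF/+ vs ABpIF/F (SE 0.42, edgeR adjusted p = 0.000785).

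*Hlf* (chromosome 11, 90336536 to 90390895) showed the smallest change among the 4 called members. Its level was 32.4 to 73.0 CPM in Ctrl, with a median of 66.4, and 62.2 to 94.0 CPM in ABpIF/+, with a median of 68.8. BG183, BG38 and BG90 had 41.6, 25.1 and 24.3 CPM. Again malpa387 was the only mouse of another group within their range. *Hlf* fell by 1.04 on the log2 scale in ABpIF/F vs Ctrl (SE 0.23, edgeR adjusted p = 0.00239), close to the 2-fold threshold, and was no longer called when any 1 of 4 mice was left out. It was -0.902 without BG90 and -0.917 without BG38 (edgeR adjusted p = 0.0233 and 0.0297), and -0.987 and -0.996 without the Ctrl mice malpa454 and malpa458. In ABpIF/+ vs ABpIF/F the log2 fold change was 1.27 (SE 0.23, edgeR adjusted p = 0.000552). With only malpa387 left out *Hlf* was at -1.17 in ABpIF/F vs Ctrl (edgeR adjusted p = 4.25e-05).

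*Nfil3* (chromosome 13, 52967209 to 52981073), the repressor at the same boxes, did not follow the activators. It was 7.46 to 21.3 CPM in Ctrl (median 11.4) and 6.78 to 18.5 CPM in ABpIF/+ (median 11.6). BG183, BG38 and BG90 had 11.2, 13.3 and 32.1 CPM. Only BG90, the ABpIF/F mouse with the least *Dbp*, was above all other mice, and malpa387 was the highest Ctrl mouse. The log2 fold change in ABpIF/F vs Ctrl was 0.61 (SE 0.40, edgeR adjusted p = 0.405), and without BG90 it was -0.02. The ratio of *Dbp* to *Nfil3* CPM, which sets an activator against the repressor, was between 3.87 and 14.5 in 11 mice, namely all ABpIF/+ mice and all Ctrl mice but malpa387. It was 2.95, 0.729 and 0.0278 in BG183, BG38 and BG90, and 0.173 in malpa387.

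*Usp2* (chromosome 9, 44067021 to 44095627), a deubiquitinase whose mRNA cycles in many tissues, gave the largest difference. Ctrl mice had 3.69 to 100.9 CPM with a median of 73.5, and ABpIF/+ mice 33.3 to 71.8 CPM with a median of 43.0. The ABpIF/F mice BG183, BG38 and BG90 had 0.424, 1.25 and 0.965 CPM, from 13, 45 and 27 counts. *Usp2* was the only member for which the ABpIF/F mice lay below every Ctrl mouse, malpa387 included. It fell by 6.21 on the log2 scale in ABpIF/F vs Ctrl (SE 0.93, edgeR adjusted p = 0.000414), and remained called without each mouse in turn, between -6.57 and -5.88. In ABpIF/+ vs ABpIF/F it was higher by 5.69 (SE 0.91, edgeR adjusted p = 0.000822). In ABpIF/+ vs Ctrl the log2 fold change was -0.52 (SE 0.51, edgeR adjusted p = 0.605). Without malpa387 the latter was -0.77 with an edgeR adjusted p of 0.00739, short of the 2-fold threshold.

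*Ciart* and *Bhlhe41* encode repressors that act within the loop. *Ciart* (chromosome 3, 95878503 to 95882251) was 0.335 to 21.8 CPM in Ctrl (median 17.9) and 17.7 to 37.0 CPM in ABpIF/+ (median 23.1). BG183, BG38 and BG90 had 1.17, 0.249 and 0.679 CPM, from 36, 9 and 19 counts. These were below every mouse but malpa387, whose value was from 9 counts. *Ciart* fell by 4.49 on the log2 scale in ABpIF/F vs Ctrl (SE 0.95, edgeR adjusted p = 0.00504). It was higher by 5.13 in ABpIF/+ vs ABpIF/F (SE 0.97, edgeR adjusted p = 0.00252). The adjusted p of the former lay between 0.0128 and 0.0377 without any 1 of the ABpIF/F mice, so that with malpa387 in the fit the call needed all 3. The latter was not called without BG38 or BG90, at 4.70 and 5.13 (edgeR adjusted p = 0.0199 and 0.015). With only malpa387 left out the log2 fold changes were -4.75 and 5.14 (edgeR adjusted p = 1.77e-07 and 2.51e-07).

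*Bhlhe41* (chromosome 6, 145858243 to 145865558) was the least abundant member, with 0.0744 to 1.98 CPM in Ctrl (median 1.53) and 0.830 to 1.81 CPM in ABpIF/+ (median 1.44). BG183, BG38 and BG90 had 0.848, 0.886 and 0.0357 CPM. The value of BG90 was 1 count and that of malpa387 was 2 counts, and BG183 and BG38 overlapped the other groups. The log2 fold change was -1.10 in ABpIF/F vs Ctrl (SE 0.69, edgeR adjusted p = 0.363) and 1.24 in ABpIF/+ vs ABpIF/F (SE 0.69, edgeR adjusted p = 0.274). Neither difference was larger than the spread between the mice.

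*Wee1* (chromosome 7, 110122046 to 110143286) encodes the kinase that restrains CDK1 and so entry into mitosis. Ctrl mice had 2.196 to 31.5 CPM, with a median of 20.6, and ABpIF/+ mice 21.7 to 30.1 CPM, with a median of 25.1. BG183, BG38 and BG90 had 5.35, 8.23 and 3.07 CPM. They lay below all ABpIF/+ mice and above malpa387, which was the lowest of the 15. The log2 fold change was -1.86 in ABpIF/F vs Ctrl (SE 0.59, edgeR adjusted p = 0.0455) and 2.18 in ABpIF/+ vs ABpIF/F (SE 0.59, edgeR adjusted p = 0.0215), both outside the threshold. Without malpa387 both were called, at -2.09 (edgeR adjusted p = 1.45e-05) and 2.18 (edgeR adjusted p = 1.6e-05).

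**Figure D2:**
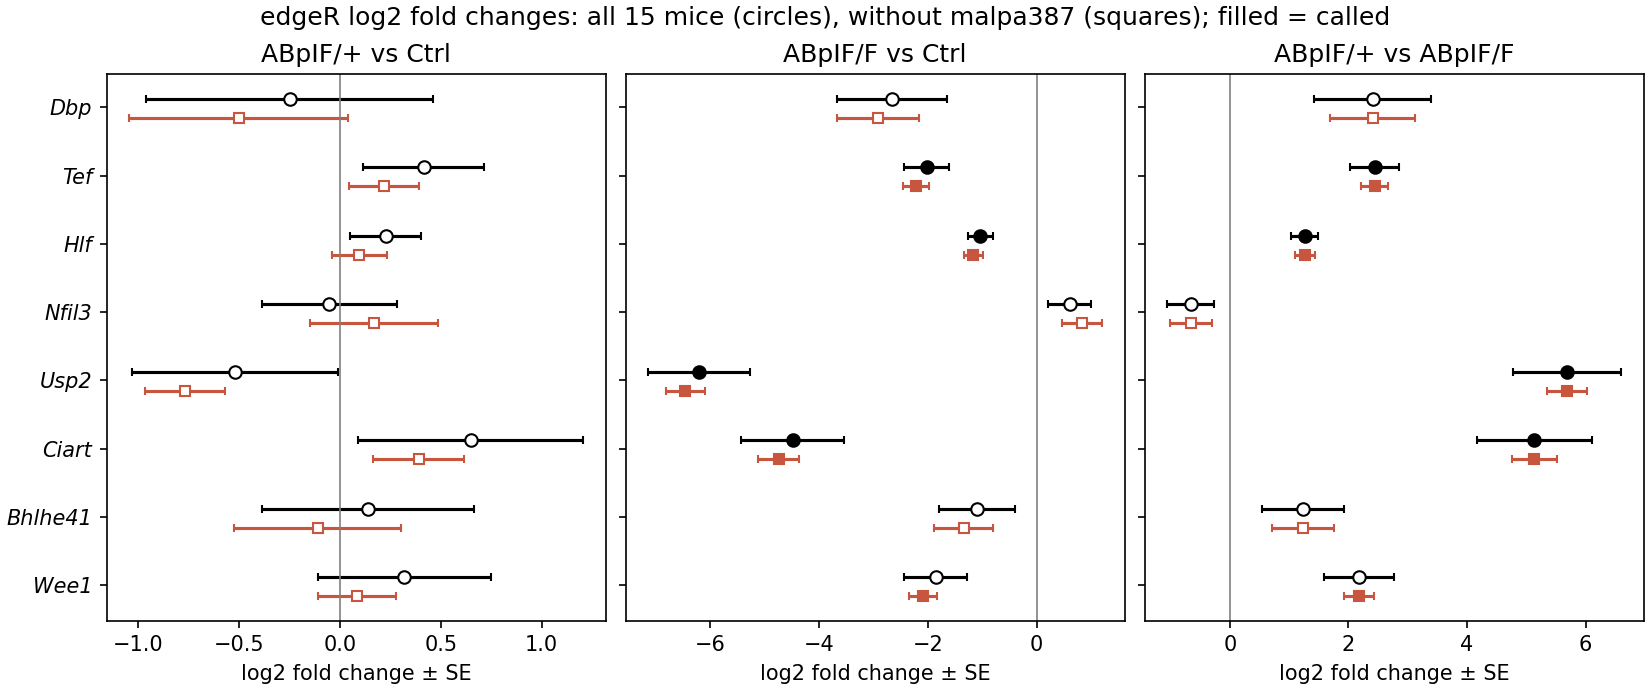
Log2 fold change ± SE of the 8 members in the 3 comparisons, from all 15 mice (circles) and without malpa387 (squares), filled where called. *Usp2*, at -6.21 and 5.69, and *Ciart*, at -4.49 and 5.13, lie farthest from 0, and no symbol is filled in ABpIF/+ vs Ctrl.

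Between ABpIF/+ and Ctrl all 8 members overlapped, with malpa387 and without it. The share of all genes that overlap was not counted, so the overlap is not a trait of the members. Their log2 fold changes lay between -0.52 for *Usp2* and 0.65 for *Ciart*. No member had an unadjusted edgeR p under 0.05, where 33.5% of all genes did. DESeq2 called 0 members, against 17.9% of the genes to which it gave an adjusted p. This does not show that the groups were alike, since the SE of *Dbp* (log2 fold change -0.25) was 0.71. The SD of log2 CPM of *Dbp* in Ctrl was 1.99 with malpa387 and 0.23 without, and that of *Hlf* was 0.44 with it and 0.08 without. In the other 5 Ctrl mice the SD was largest for *Bhlhe41*, *Nfil3* and *Wee1*, at 0.62, 0.44 and 0.37. In the ABpIF/+ mice the SD was 0.11 for *Tef* and 0.16 for *Wee1*. In the 3 ABpIF/F mice it was 2.59 for *Dbp*, 1.82 for *Bhlhe41*, 0.99 for *Ciart* and 0.75 for *Tef*. These values were above those of the ABpIF/+ mice and of the 5 Ctrl mice, but with malpa387 the SD of Ctrl was larger for *Ciart* and *Tef*, at 2.26 and 0.86.

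Per kilobase of annotated exon, the levels of the members spread widely. The mean CPM per kilobase in Ctrl was 30.5 for *Dbp*, 25.6 for *Tef*, 13.7 for *Usp2*, 9.32 for *Hlf*, 6.86 for *Ciart*, 6.11 for *Nfil3*, 5.92 for *Wee1* and 0.192 for *Bhlhe41*. Without malpa387 *Nfil3*, at 5.23, lay below *Wee1*, at 6.97. In ABpIF/F mice the mean level per kilobase was 9.30 for *Nfil3*, 6.28 for *Tef*, 4.84 for *Dbp*, 4.54 for *Hlf* and 0.182 for *Usp2*. *Nfil3* was the highest of these in BG90, at 15.8 CPM per kilobase with *Dbp* at 0.298, and in BG38, at 6.55 with *Tef* at 6.15, *Hlf* at 3.75 and *Dbp* at 3.23. In BG183 *Nfil3*, at 5.51, was below *Dbp* (11.0), *Tef* (9.36) and *Hlf* (6.23). The means without BG90, a value chosen after seeing the data, were 6.03 for *Nfil3*, 7.76 for *Tef*, 7.11 for *Dbp* and 4.99 for *Hlf*.

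The members other than *Nfil3* went up and down together over the mice. Over the 15 mice, the Pearson correlation of log2 CPM had a median of 0.888 over the 21 pairs, and those of *Nfil3* were negative for 7 of 7 pairs, with a median of -0.63. The mice fall into clusters, so these values describe the separation of the ABpIF/F mice and malpa387 from the rest. After subtraction of the group mean the median of the 21 pairs was 0.831. Without malpa387 it was 0.254, with 14 of 21 pairs positive. Some pairs stayed high in these 14 mice, at 0.924 for *Dbp* and *Tef*, 0.823 for *Dbp* and *Bhlhe41*, 0.705 for *Tef* and *Hlf* and 0.693 for *Dbp* and *Hlf*. The SD of log2 CPM of *Dbp* was 2.59 in ABpIF/F, 0.33 in ABpIF/+ and 0.23 in Ctrl mice without malpa387. The pairs of *Dbp* thus rest largely on the ABpIF/F mice, and *Bhlhe41* of BG90 was 1 count. Apart from *Nfil3*, the pairs of *Usp2* fell to between -0.541 and 0.210 and those of *Ciart* to between -0.385 and 0.480. *Nfil3* was negative in 5 of 7 pairs.

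The core clock genes were set beside their outputs. *Bmal1* was at 21.2, 22.1 and 30.6 CPM in BG183, BG38 and BG90 and at 16.4 CPM in malpa387, and between 0.404 and 5.22 CPM in the other 11 mice. The ratio of *Dbp* to *Bmal1* was 1.55, 0.437 and 0.0292 in the 3 ABpIF/F mice and 0.225 in malpa387, against 12.3 to 240.4 in the others. As malpa387 was set beside the ABpIF/F mice after its low *Dbp* had been seen, this gap is not a separate result. Among the core clock genes, *Per1*, *Cry1* and *Cry2* were called higher in ABpIF/+ vs Ctrl and *Nr1d2* lower in ABpIF/F vs Ctrl. In ABpIF/+ vs ABpIF/F, *Per1*, *Cry2* and *Bhlhe40* were higher and *Npas2* was lower. Without malpa387, *Bmal1* and *Npas2* were called higher in ABpIF/F vs Ctrl, and *Per1*, *Per2*, *Per3*, *Nr1d2* and *Bhlhe40* were called lower. In the same fit *Cry2* was no longer called in ABpIF/+ vs Ctrl, and *Per2*, *Per3* and *Bmal1* were added in ABpIF/+ vs ABpIF/F, the last of them lower. The time of day of sampling was not given, and its part in these differences was not tested.

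**Figure D3:**
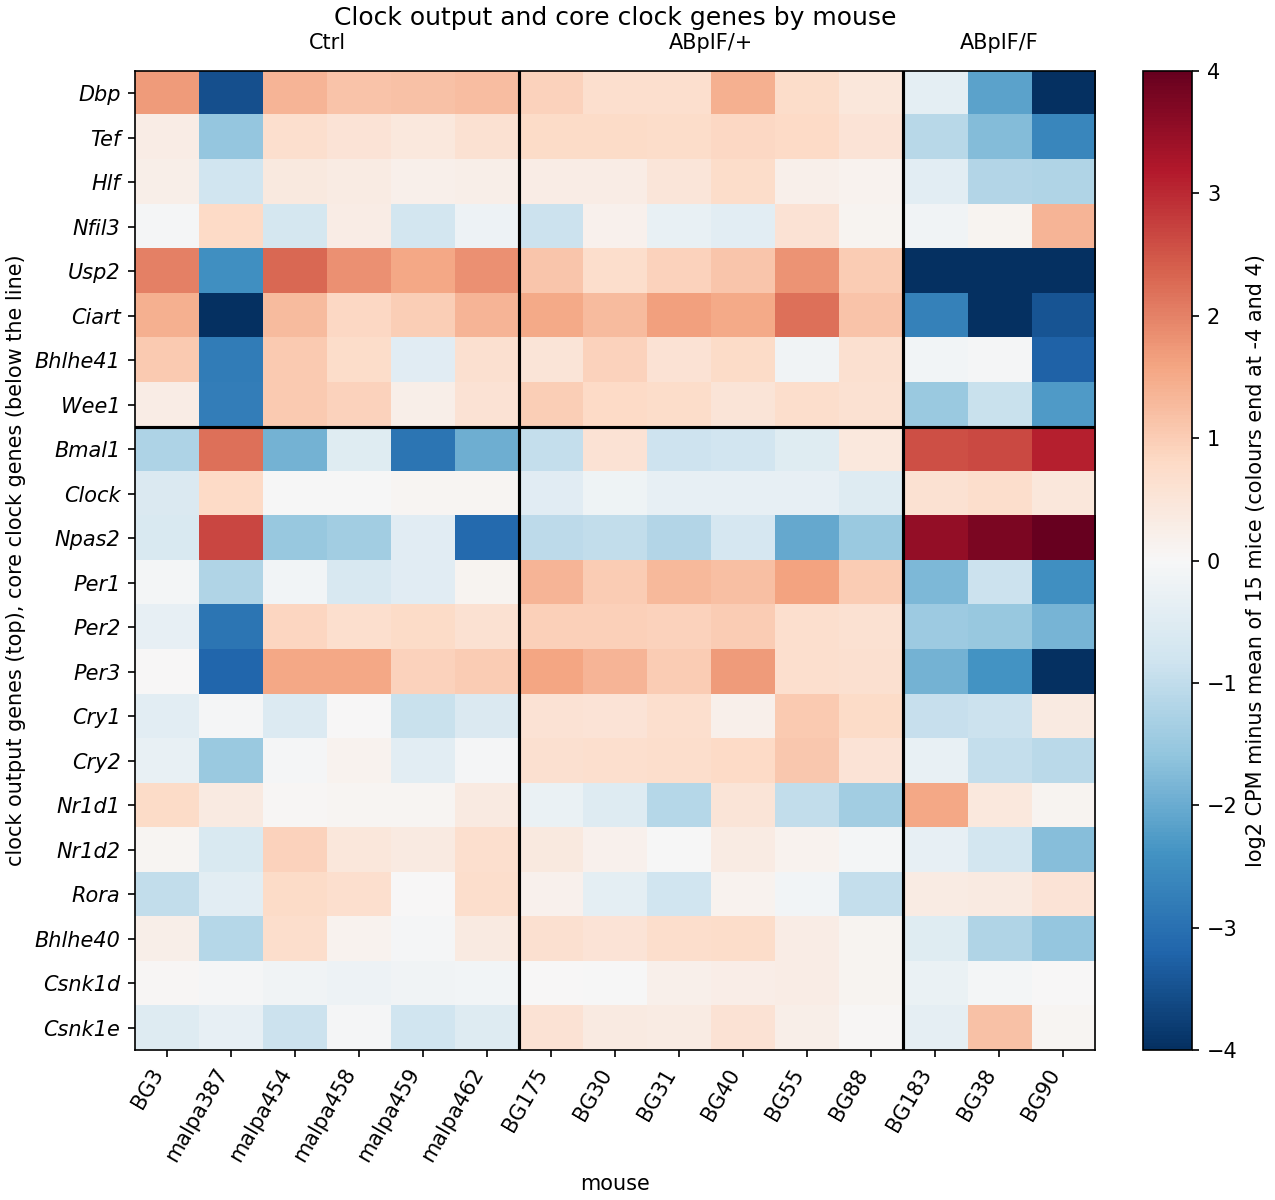
Log2 CPM of the 8 clock output genes (above the line) and of core clock genes, minus the mean of the 15 mice, with the mice in columns by group and colours ending at -4 and 4. The columns of the ABpIF/F mice and of the Ctrl mouse malpa387 show low *Dbp*, *Usp2* and *Ciart* (blue) with high *Bmal1* and *Npas2* (red).

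**Figure D4:**
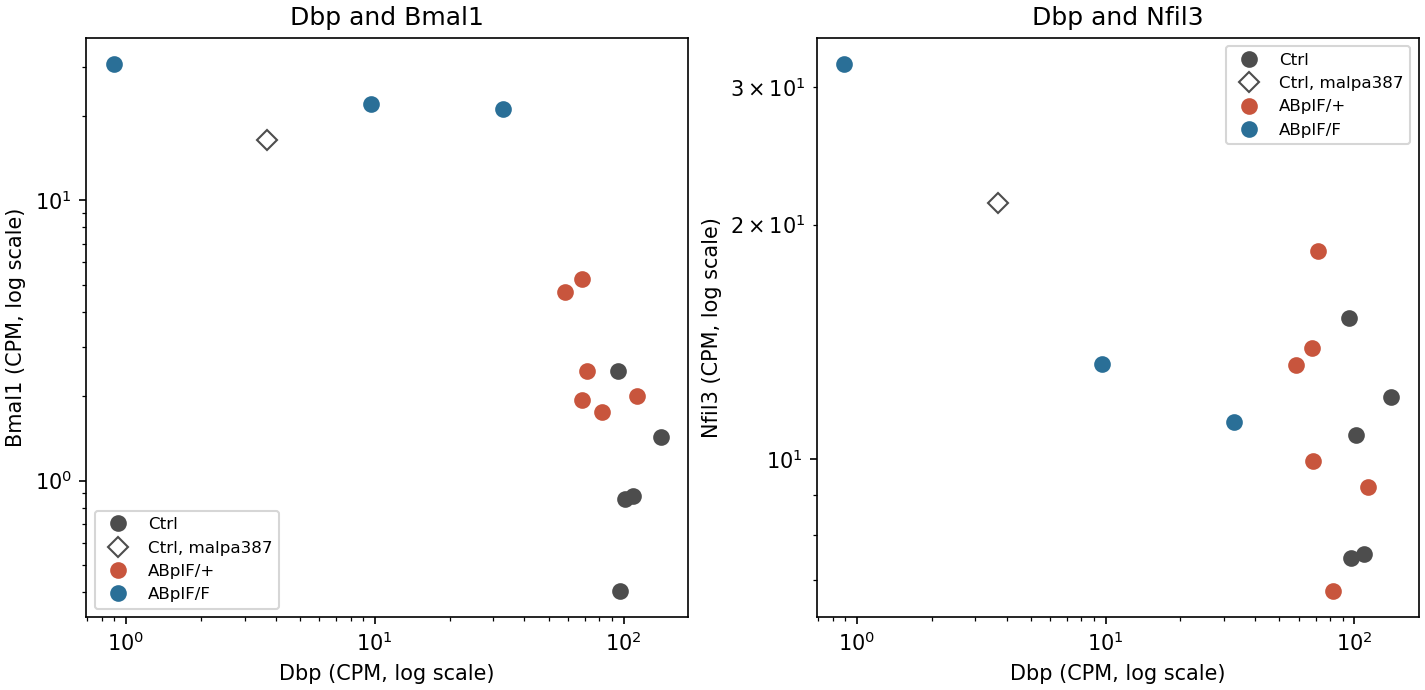
CPM of *Dbp* against *Bmal1* (left) and *Nfil3* (right) in the 15 mice, on log scales. In the left panel the 3 ABpIF/F mice and malpa387 (open diamond) lie at *Bmal1* levels of 16.4 to 30.6 CPM and the other 11 mice at 0.404 to 5.22 CPM.

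Outside the 8 members, the genes whose log2 CPM was most like that of *Dbp* over the 15 mice, among 12203 with a gene symbol that averaged 1 CPM or more, were *Per3* (Pearson r 0.935), *Nr1d2* (0.921), *Sbk1* (0.916), *Bhlhe40* (0.906), *Zfyve9* (0.866), *Ripk2* (0.851), *A930033H14Rik* (0.851) and *Cdk18* (0.850). Among the most opposite were *Rfxank* (-0.90), *Tubb2a* (-0.89) and *Tmem263* (-0.87). Of the genes named here, *Nr1d2* and *A930033H14Rik* were called in ABpIF/F vs Ctrl, with log2 fold changes of -1.20 and -3.09 (edgeR adjusted p = 0.00775 and 0.00108). Of the core clock genes among them, *Per3* and *Bhlhe40* were also called there without malpa387, at -3.71 and -1.31 (edgeR adjusted p = 0.000712 and 0.00018). Over the 14 mice without malpa387 the values of the 8 genes most like *Dbp* lay between 0.814 and 0.935. The points share library and depth, and the likeness was used to choose the genes.

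Genes known as targets of the PAR bZIP factors were then examined. Of 13 such genes, 9 were lower in ABpIF/F than in Ctrl and none was higher, with a median log2 fold change of -2.35. In ABpIF/+ vs Ctrl 5 of 13 were lower, with a median of -0.92, although *Dbp*, *Tef* and *Hlf* were not called there. In ABpIF/+ vs ABpIF/F 7 of 13 were higher, with a median of 1.44. Without malpa387, 9 were lower in ABpIF/F vs Ctrl, 4 were lower in ABpIF/+ vs Ctrl and 7 were higher in ABpIF/+ vs ABpIF/F. The summed level of the 13 genes was 2304, 1768 and 1682 CPM in BG183, BG38 and BG90, 2951 CPM in malpa387 and 5424 to 7376 CPM in the other 11 mice. The 4 mice with the least *Dbp* thus had the lowest sums. The list is headed by *Cyp2a4*, which with *Cyp2a5* is a near-identical pair whose reads may be divided uncertainly.

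*Por*, the reductase that supplies electrons to cytochromes P450, was 147 to 185 CPM in ABpIF/F mice, 818 to 1626 CPM in ABpIF/+ and 286 to 896 CPM in Ctrl, so that the ABpIF/F mice lay below all others (log2 fold change -2.13 vs Ctrl, SE 0.29, edgeR adjusted p = 1.93e-05). *Alas1*, the first enzyme of haem synthesis, fell by 4.07 on the log2 scale in ABpIF/F vs Ctrl (SE 0.62, edgeR adjusted p = 0.000331). The nuclear receptors *Nr1i3* and *Ppara* fell by 1.64 and 1.66 in the same comparison (SE 0.25 and 0.28, edgeR adjusted p = 6.53e-05 and 0.000209). *Cyp2a5* fell by 3.19 (SE 0.38, edgeR adjusted p = 9.68e-06) and *Cyp2c37* by 2.35 (SE 0.28, edgeR adjusted p = 3.16e-06). Of these 6, only *Cyp2c37* was also called in ABpIF/+ vs Ctrl, at -1.27 (SE 0.20, edgeR adjusted p = 5.67e-05). The other genes of the list that were called in ABpIF/F vs Ctrl were all called lower in ABpIF/+ vs Ctrl too, though not all without malpa387.

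**Figure D5:**
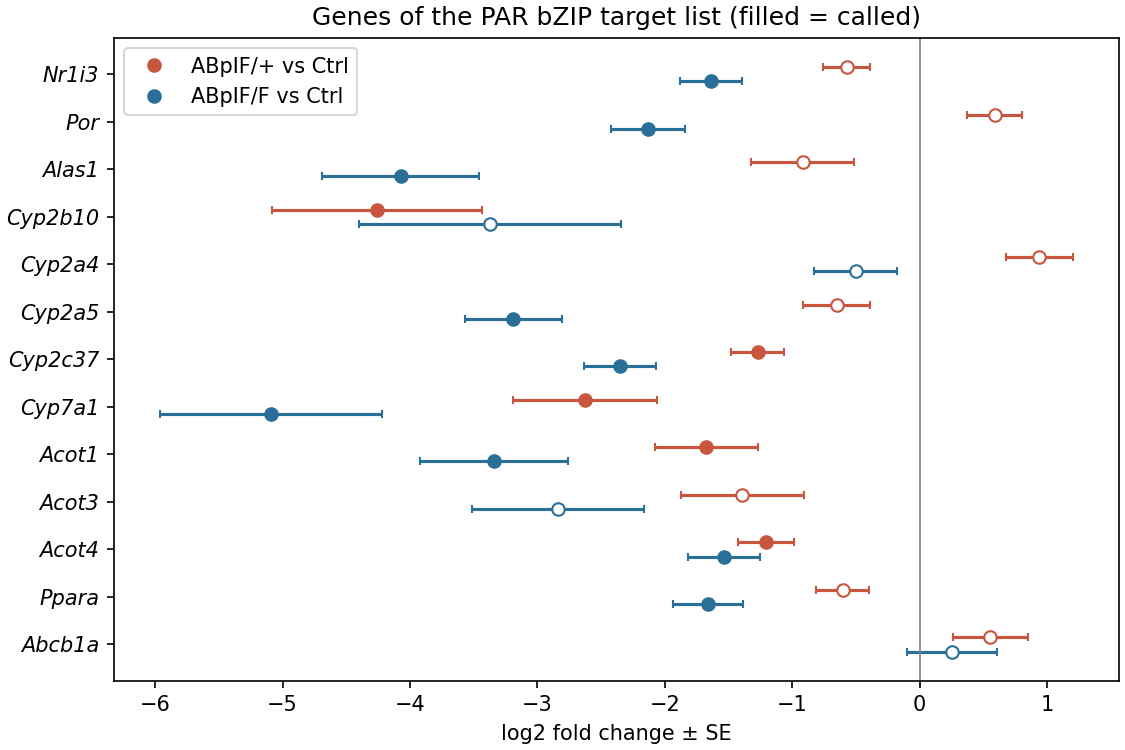
Log2 fold change ± SE of the 13 genes of the PAR bZIP target list in ABpIF/+ vs Ctrl and ABpIF/F vs Ctrl, which share the Ctrl mice, filled where called. In ABpIF/F vs Ctrl 9 of the 13 are filled and all of those lie below 0.

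Other lists that bear on the time, feeding or state of the mouse were counted in the same way, in the order ABpIF/+ vs Ctrl, ABpIF/F vs Ctrl and ABpIF/+ vs ABpIF/F. Among 10 other genes that cycle in liver, 0 were higher and 2 lower, 0 higher and 4 lower, and 4 higher and 1 lower. Without malpa387 the counts became 2 higher (*Dtx4* and *Clpx*) and 5 lower in ABpIF/F vs Ctrl, and 5 higher and 2 lower in ABpIF/+ vs ABpIF/F. *Elovl3*, a fatty acid elongase, fell by 5.15 on the log2 scale in ABpIF/+ vs Ctrl (SE 0.75, edgeR adjusted p = 7.18e-05) and by 3.92 in ABpIF/F vs Ctrl (SE 0.89, edgeR adjusted p = 0.00531). *Mfsd2a*, a lysolipid transporter, fell in both by 2.11 (SE 0.47, edgeR adjusted p = 0.00428) and 5.95 (SE 0.79, edgeR adjusted p = 0.000151). *Gys2*, the liver glycogen synthase, was higher by 1.74 in ABpIF/+ vs ABpIF/F (SE 0.24, edgeR adjusted p = 2.74e-05).

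Of 6 genes that follow body temperature, the counts were 2 higher and 3 lower, 1 and 1, and 1 and 0. The cold-inducible *Cirbp* was higher than Ctrl in both other groups, by 1.96 in ABpIF/+ (SE 0.18, edgeR adjusted p = 5.52e-08) and 1.61 in ABpIF/F (SE 0.20, edgeR adjusted p = 9.84e-06), and the chaperone *Hsph1* fell by 1.86 and 1.71 (edgeR adjusted p = 2.41e-06 and 0.00019). Of 8 glucocorticoid-induced genes, 5 were higher and none lower, none higher and 2 lower, and 4 higher and none lower, the first count being 4 without malpa387. *Fkbp5*, a cochaperone of the receptor, was higher by 2.16 in ABpIF/+ vs Ctrl (SE 0.24, edgeR adjusted p = 2.03e-06). Its log2 fold change was 0.21 in ABpIF/F vs Ctrl (SE 0.28, edgeR adjusted p = 0.831).

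Of 9 fasting-induced genes, 2 were higher and 1 lower, 1 higher and 4 lower, and 2 higher and none lower. *Igfbp1*, a binding protein of insulin-like growth factors, was higher than Ctrl by 5.45 in ABpIF/+ (SE 0.53, edgeR adjusted p = 2.69e-06) and 3.85 in ABpIF/F (SE 0.53, edgeR adjusted p = 0.000143), whereas the gluconeogenic *Pck1* fell by 1.70 in ABpIF/F vs Ctrl (SE 0.35, edgeR adjusted p = 0.0017). Of 6 feeding-induced genes, 3 were lower against Ctrl in each group, *Fasn*, *Acly* and *Scd1* of fatty acid synthesis, and none was called in ABpIF/+ vs ABpIF/F. With malpa387 left out, *Srebf1* was also lower in ABpIF/F vs Ctrl. Their summed level was 11742 CPM in malpa387, within the 7283 to 12865 CPM of the Ctrl mice, 2564 to 4292 CPM in ABpIF/+ and 2176 to 3605 CPM in ABpIF/F. The feeding genes thus set both BrafCA groups apart from Ctrl. The part of feeding in the differences of the clock output genes was not tested.

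Around *Wee1*, 10 genes of entry into mitosis were examined, of which 6 averaged 1 CPM or more. In ABpIF/+ vs Ctrl 5 were lower, in ABpIF/F vs Ctrl none was called, and in ABpIF/+ vs ABpIF/F 5 were lower, or 4 without malpa387, *Cdk1* being lost. *Top2a*, needed to separate chromosomes, fell by 4.02 in ABpIF/+ vs Ctrl (SE 0.31, edgeR adjusted p = 2.16e-09). *Cdk1*, the target of WEE1, fell by 1.76 (SE 0.43, edgeR adjusted p = 0.00308). Their levels in ABpIF/F vs Ctrl differed by 0.26 (edgeR adjusted p = 0.75) and 0.09 (edgeR adjusted p = 1).

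Markers of cell types also moved between the groups. Of 8 hepatocyte markers, 2 were higher and none lower in ABpIF/+ vs Ctrl, 2 higher (*Apoa1* and *Fgb*) and 1 lower (*Tat*) in ABpIF/F vs Ctrl, and 1 higher (*Tat*) in ABpIF/+ vs ABpIF/F. With malpa387 left out, *Tat* was not called in ABpIF/+ vs Ctrl and *Cps1* was added to the lower ones in ABpIF/F vs Ctrl. Of 7 cholangiocyte markers the counts were 2 higher and 1 lower, 5 higher and none lower, and none higher and 5 lower, with none lower in ABpIF/+ vs Ctrl without malpa387. Their summed level, led by *Spp1*, was 236, 1195 and 813 CPM in BG183, BG38 and BG90, 54.7 to 175.6 CPM in ABpIF/+ and 49.4 to 87.9 CPM in Ctrl, with malpa387 at 87.9 CPM. None of the 7 was at 0 in a whole group. The summed level of malpa387 was below that of each ABpIF/F mouse. *Spp1* made up most of the sum in ABpIF/F mice, at 660 of 748 CPM on average. *Sox9* and *Spp1* were higher by 3.70 and 3.91 in ABpIF/F vs Ctrl (edgeR adjusted p = 1.59e-08 and 0.000375).

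Of 7 macrophage markers 4 were lower in ABpIF/+ than in Ctrl, among them *Clec4f* and *Adgre1*, none was called in ABpIF/F vs Ctrl, and 4 were lower in ABpIF/+ than in ABpIF/F. Of 7 endothelial markers 2 were lower in ABpIF/+ vs Ctrl, 1 (*Lyve1*) was higher in ABpIF/F vs Ctrl and 2 (*Lyve1* and *Cdh5*) were lower in ABpIF/+ vs ABpIF/F. Of 8 stellate cell markers 6 were lower, 1 was higher and 7 were lower in the same order, with *Col3a1* and *Lrat* among the lower ones. Of 8 lymphocyte markers, all under 1 CPM on average, 2 were lower, 1 (*Cd8a*) was higher and 4 were lower, *Cd79a* among them. These counts were 1, none and 4 without malpa387. The summed levels of these 4 lists in malpa387 were 272, 199, 233 and 4.95 CPM, within the ranges of the other Ctrl mice. The part of cell composition in the differences of the clock output genes was not tested.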

How the data were processed

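The deposited values are raw counts per gene and mouse. Per the labels and the methods of the study, the authors made stranded mRNA libraries from Trizol RNA, trimmed paired-end reads, used HISAT2 for alignment to mm10, and obtained the counts with featureCounts 2.0.8. The annotation and the strand setting of the counting are not given in the sources used here. The tables hold 15 columns, 1 per mouse, for 23 samples, 8 mice being named by 2 samples and 7 by 1. In 10 columns the tables held the same values, and 5 columns of the second table were not used. Counts were fitted in R 4.3.3 with edgeR 4.0.16 (legacy quasi-likelihood form, robust, TMM, all genes), leaving 12 residual degrees of freedom. The prior count for log2 CPM was 2. The SE is the absolute log2 fold change over the root of F. DESeq2 1.42.0 was an alternative. On simulated data for ABpIF/F vs Ctrl the edgeR fit was tested and made calls at this group size. Named genes were all members, *Icmt*, called core clock genes, up to 6 per other list by smallest adjusted p, 2 per cell type list and the 8 genes most and 4 least like *Dbp*. Results of 2 genes that this rule selects are not reported here. The members and lists were chosen with earlier results of these data known. Exonic lengths are from GENCODE M21. Proteomics and reads were not analysed here.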

Additional observations from a re-analysis of the deposited data

Results flagged for a closer look

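The 8 members were examined in each of the 2 groups of 6 mice, and 1 mouse lay far from the others on the log2 scale in 7 cases. Chance gives about 1 in 20 for separate groups, but the members were correlated and the cases are not separate. In 6 of them it was the Ctrl mouse malpa387, at 3.69 CPM of *Dbp*, 54.2 of *Tef*, 32.4 of *Hlf*, 3.69 of *Usp2*, 0.335 of *Ciart* and 2.196 of *Wee1*. The other was the ABpIF/+ mouse BG88, with 232.5 CPM of *Tef* where the other 5 lay closely together. For *Tef*, *Hlf* and *Ciart* the log2 fold changes against Ctrl had opposite signs in ABpIF/+ and ABpIF/F, and the difference between these groups was called, at 2.44, 1.27 and 5.13 (edgeR adjusted p = 0.000785, 0.000552 and 0.00252). The part of the hour of sampling, of feeding and of the strain label in these values was not tested.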

How the results depend on the processing

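With only the groups compared in the fit, 1 member was called in ABpIF/F vs Ctrl (*Usp2*) and 5 in ABpIF/+ vs ABpIF/F. Leaving out each mouse in turn gave 1 to 5 called members in ABpIF/F vs Ctrl, 3 to 5 in ABpIF/+ vs ABpIF/F and 0 in ABpIF/+ vs Ctrl. Shares of all genes in these runs are given above only without malpa387 and, for ABpIF/F vs Ctrl, without BG38 and BG90. The median correlation of the members other than *Nfil3* after subtraction of the group mean fell to 0.254 without malpa387. DESeq2 called 0, 6 and 5 members in ABpIF/+ vs Ctrl, ABpIF/F vs Ctrl and ABpIF/+ vs ABpIF/F, and 3084, 2236 and 2448 of all genes, whereas edgeR called 2729, 1883 and 1969. No alternative run called a member in ABpIF/+ vs Ctrl. Reversed signs were seen in differences that were not called. Leaving out 1 mouse, the log2 fold change of *Nfil3* in ABpIF/+ vs Ctrl ran from -0.22 to 0.17 and that of *Bhlhe41* from -0.11 to 0.30, and that of *Nfil3* in ABpIF/F vs Ctrl from -0.0174 to 0.87. The single values of the opposite sign were 0.17, 0.01, 0.04 and 0.01 for *Nfil3* in ABpIF/+ vs Ctrl (without malpa387, malpa458, BG175 and BG40), -0.11 and -0.0010 for *Bhlhe41* (without malpa387 and malpa459), and -0.0174 for *Nfil3* in ABpIF/F vs Ctrl (without BG90). With BG3 as the only Ctrl mouse, chosen after seeing the data, *Bhlhe41* was at -0.48 in ABpIF/+ vs Ctrl. The lone mouse was assumed to vary like the other groups. Counts of the gene lists without malpa387 were also chosen after seeing the data. Of the other values, 531 kept their direction and side of the threshold, 17 lost a call and 12 gained one, the cause being not tested. The other deposited table was not run as an alternative, because 5 of its Ctrl columns were not used. No paired analysis was possible because mice carry names and no shared replicate numbers. Depth limited *Bhlhe41*, at 1 and 2 counts in BG90 and malpa387.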
